A study of Homo sapiens with 4 samples.

Results

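Cells of HCT116, an established line from a human colon carcinoma, were transfected with a single-stranded inhibitor of the microRNA miR663a or with a single-stranded scrambled RNA, and total RNA of each transfection was measured on 1 Affymetrix expression array. These are 2 of the 4 arrays of the study, and they were chosen by their genotype labels. The other 2 arrays come from HCT116 cells that received the plasmid pcDNA3.1-pri-miR663a, which carries the primary transcript of the microRNA, or the empty plasmid pcDNA3.1. The study looked for genes that are lower when miR663a is overexpressed and higher when it is inhibited. The labels give no time after transfection, no dose and no sequence of the inhibitor or of the scrambled RNA, and the cells shared the same medium with serum and antibiotics. The short titles give these arrays the opposite groups from their genotype labels, and by the titles every sign below would turn. The authors' deposited ratios of inhibitor over control have the direction that the genotype labels give.

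MicroRNAs are short RNAs that guide Argonaute proteins to messenger RNAs. Pairing between the seed, the stretch near the 5′ end of the microRNA, and a site in the 3′ untranslated region lowers the level or the translation of the messenger RNA. A single-stranded inhibitor is an RNA complementary to a microRNA that keeps it from its targets, so the direct targets of the microRNA are the transcripts such an inhibitor is meant to release. miR-663a is found in primates and has been studied in inflammation, in endothelial cells and in several cancers, the colon among them.

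The mature sequences are shown here because the seed decides which sites a microRNA can pair with. They were taken from RefSeq (GRCh38.p14), with bases 2 to 8, the seed, in capitals.
hsa-miR-663a: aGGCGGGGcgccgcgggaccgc
hsa-miR-1908-5p: cGGCGGGGacggcgauugguc
hsa-miR-6787-5p: uGGCGGGGguagagcuggcugc
hsa-miR-10396b-5p: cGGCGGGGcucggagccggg
hsa-miR-663b: gGUGGCCCggccgugccugagg
Of 2545 mature human microRNAs in the RefSeq table, 4 carry the miR-663a seed, and they are the first 4 above. Despite its name, hsa-miR-663b has another seed and matched miR-663a at 8 of 22 positions counted from the 5′ end. Mature miR-663a is encoded at chr20:26208243-26208264 on the minus strand (GRCh38.p14), within the noncoding host gene MIR663AHG. hsa-miR-1908-5p lies at chr11:61815209-61815229 within FADS1 and hsa-miR-6787-5p at chr17:82236673-82236694 within SLC16A3, so those host genes can be read on the array while the mature microRNAs themselves were not measured here.

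Levels are log2 signals from the value table the authors deposited, which holds 16381 probe sets. A probe set is a group of short probes for 1 transcript, and many genes have several. Each of 8786 named genes with levels was taken by its brightest probe set over the 4 arrays. The inhibitor and scrambled RNA arrays had the same median log2 signal, 4.16, and correlated at 0.9967 across probe sets, the closest of all pairs of arrays. The epithelial markers EPCAM, KRT18, KRT19 and CDH1 were bright on both arrays, with levels between 9.23 and 12.97 on the inhibitor array and between 9.36 and 13.13 on the scrambled RNA array. Of the colon markers with levels, CDX2 was the brightest, at 5.92 with the inhibitor and 6.39 with scrambled RNA. The brush border gene VIL1 was dim, at 4.77 and 4.71 on the same arrays, and GPA33 was just above the array median, at 4.21 and 4.28. LGALS4 was not above the array median on either array, at 3.52 with the inhibitor and 3.66 with scrambled RNA. With 1 array a side there is no spread between replicates, so no test was possible and every difference below describes these 2 arrays. Differences are inhibitor minus scrambled RNA on the log2 scale.

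Few transcripts differed by much. A gene was counted when it was above the array median on both arrays, which left 5482 genes. Of these, 28 passed 1.5-fold on the higher side with the inhibitor (0.511%) and 13 on the lower side (0.237%). At 2-fold, 1 gene was higher (0.0182%) and 0 were lower (0%). The middle of the distribution lay slightly below 0, with a median of −0.02, 45.1% of genes above 0 and 54.5% below it. Its standard deviation was 0.19. The threshold ran through closely spaced values: PCDHAC1 was just inside on the higher side at 1.504-fold and SEC24D just outside at 1.498-fold, while MDFIC was just inside on the lower side at 1.50004-fold and LLGL1 just outside at 1.49986-fold.

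**Figure D1:**
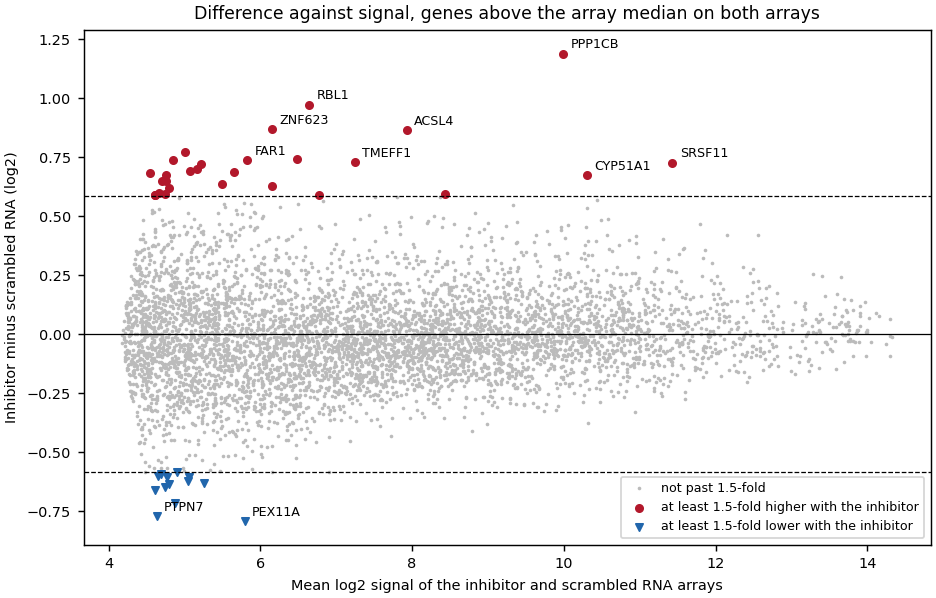
Difference between the inhibitor and scrambled RNA arrays (log2, vertical axis) against the mean log2 signal of the 2 arrays (horizontal axis) for the 5482 counted genes, each point a gene, with dashed lines at 1.5-fold. The cloud is widest at low signal, where all 13 lower genes lie, and PPP1CB stands alone at the top at 1.19.

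Spread depended on signal. In 5 equal groups of genes by mean level, from dim to bright, the standard deviation of the difference was 0.234, 0.223, 0.173, 0.157 and 0.147. The dimmest group, with mean levels of 4.18 to 5.23, held 14 of the 28 higher genes and 11 of the 13 lower ones. In the brightest group, with mean levels of 9.65 to 14.3, 3 genes were 1.5-fold higher and 0 were lower. Lower genes sat close to the array median: 12 of 13 had their lower level within 1 log2 unit of it, against 20.2% of all counted genes. The corresponding count among the higher genes was 14 of 28.

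The largest difference was in PPP1CB, which encodes the beta catalytic subunit of protein phosphatase 1, an enzyme that removes phosphate from serine and threonine and, with myosin-targeting subunits, acts on myosin light chain. PPP1CB was at 10.59 with the inhibitor and 9.40 with scrambled RNA, a difference of 1.19 (2.28-fold). On the plasmid arrays it was at 9.37 with miR663a and 10.11 with the empty vector. Inhibitor and vector were thus the high arrays, and scrambled RNA and miR663a the low ones. A second PPP1CB probe set was at 9.07 with the inhibitor and 8.67 with scrambled RNA, and the third was at 8.30 and 8.05 on the same arrays. The fourth has no levels and had a ratio of 1.15 in the authors' deposited table. All 4 were therefore above 0, but only the brightest passed 1.5-fold, and the median of the other 3 was 0.24.

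RBL1 encodes p107, a relative of the retinoblastoma protein that binds E2F factors and restrains cell cycle genes. It was at 7.13 with the inhibitor and 6.16 with scrambled RNA, a difference of 0.97 (1.96-fold), and at 5.98 with miR663a and 6.76 with the vector. Its 3 other probe sets lay on the opposite side of 0, between −0.52 and −0.04. Of those 3, the one nearest 0 was at 4.99 with the inhibitor and 5.03 with scrambled RNA, and the other 2 were at or below 4.18 on both arrays, close to or under the array median. ZNF623, a zinc finger gene with 1 probe set, was at 6.59 with the inhibitor and 5.72 with scrambled RNA (0.87), and at 6.18 with miR663a and 6.77 with the vector.

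Among lipid enzymes, ACSL4, which joins arachidonate and other polyunsaturated fatty acids to coenzyme A, was at 8.36 with the inhibitor and 7.50 with scrambled RNA (0.86), and at 7.29 with miR663a and 7.95 with the vector. Its other 2 probe sets were below the array median and differed by −0.31 and −0.06. FAR1, which reduces fatty acyl-CoA to the alcohol used in ether lipids, was at 6.20 with the inhibitor and 5.46 with scrambled RNA (0.74). In the authors' deposited table its other 3 probe sets had ratios of 1.27, 0.927 and 0.757, so they lay on both sides of 1. CYP51A1, which demethylates lanosterol on the way to cholesterol, was at 10.65 with the inhibitor and 9.97 with scrambled RNA (0.67), and at 9.73 with miR663a and 10.54 with the vector. Its other probe set had a ratio of 0.878 in the authors' deposited table, which lists both CYP51A1 probe sets on chromosome 13 while the gene is on chromosome 7.

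The remaining higher genes were of mixed function. SRSF11, a serine and arginine rich splicing factor, was the brightest of them, at 11.80 with the inhibitor and 11.07 with scrambled RNA (0.73), and at 11.19 with miR663a and 11.72 with the vector. Its second probe set with levels was at 8.52 with the inhibitor and 8.24 with scrambled RNA, and the other 2 had ratios of 1.02 and 0.893 in the authors' deposited table. TMEFF1, a transmembrane protein with follistatin-like domains, was at 7.61 with the inhibitor and 6.88 with scrambled RNA, and its other probe set was at 6.01 and 5.73 on the same arrays. DEFB124, a beta-defensin, was at 6.86 with the inhibitor and 6.12 with scrambled RNA. Dimmer genes included NTRK3, the receptor of neurotrophin 3, at 5.22 with the inhibitor and 4.48 with scrambled RNA, LINC01121, a long noncoding RNA, at 5.40 and 4.62, and MEIOC, a meiosis gene, at 5.58 and 4.86. The 4 other probe sets of MEIOC were all below 0, down to −0.45. NTRK3 was at 0.10 by the median over all its probe sets, which ran from −0.34 to 0.74. RTP5, WFDC12, a protease inhibitor of the whey acidic protein family, ENO3, the muscle enolase, and LTB, lymphotoxin beta, complete the 15 largest, with differences of 0.69 to 0.70. None of the 4 was above 5.99 on either array. The other probe set of ENO3 was at −0.05 and that of LTB at −0.15.

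The lower genes began with PEX11A, a membrane protein that promotes peroxisome division, at 5.40 with the inhibitor and 6.19 with scrambled RNA, a difference of −0.79. Its other probe set was at 5.76 with the inhibitor and 5.85 with scrambled RNA. PTPN7, a tyrosine phosphatase that acts on MAP kinases, was at 4.25 with the inhibitor and 5.02 with scrambled RNA (−0.77), and its other probe set, at 3.90 and 3.86, was below the array median. WNT11, a secreted Wnt ligand with 1 probe set, was at 4.51 with the inhibitor and 5.23 with scrambled RNA (−0.72). CYP2J2, which makes epoxides of arachidonic acid, was at 4.42 with the inhibitor and 5.07 with scrambled RNA (−0.65). LINC00269 at −0.66, the proton pump subunit ATP6V1C2 at −0.63, the dopamine receptor DRD2 at −0.63, CRISPLD2 at −0.62, the autophagy kinase ULK2 at −0.61, NFYC-AS1 at −0.61, ZNF778 at −0.60, the phosphoinositide kinase subunit PIK3R3 at −0.59 and MDFIC at −0.58 made up the rest. The other probe set of ATP6V1C2 was at 0.08 and that of PIK3R3 at 0.20, while those of CRISPLD2 and ZNF778 were at −0.17 and −0.27. The median of the other probe sets was 0.06 for MDFIC and −0.004 for DRD2. For ULK2 the median over all its probe sets was −0.15. A further gene, TSPAN8, a tetraspanin of epithelial cells, was above the array median on 1 array only. It was at 3.86 with the inhibitor and 4.88 with scrambled RNA. That difference of −1.03 (2.04-fold lower) was not counted.

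**Figure D2:**
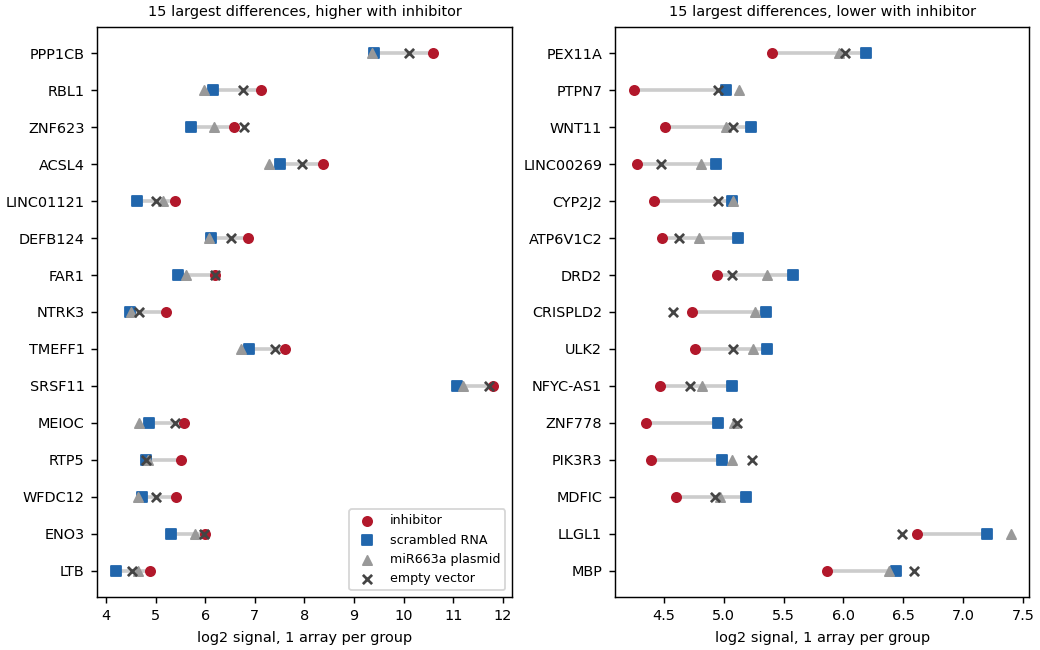
Log2 signal on each of the 4 arrays (1 array per group, inhibitor, scrambled RNA, miR663a plasmid and empty vector) for the 15 counted genes highest with the inhibitor (left) and the 15 lowest (right), with a grey line joining the inhibitor and scrambled RNA arrays. PPP1CB is at 10.59, 9.40, 9.37 and 10.11 on the 4 arrays in that order, and LLGL1 and MBP, the last of the lower genes, are just short of 1.5-fold.

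Set beside the plasmid arrays, which share no array with the RNA transfections, 21 of the 28 higher genes were lower with miR663a than with the vector, with a median difference of −0.43, and 8 of them were at least 1.5-fold lower. Over all 5482 counted genes 60.3% were lower with miR663a, and 1.71% were at least 1.5-fold lower. PPP1CB was lower with miR663a by a log2 difference of −0.75, RBL1 of −0.77, CYP51A1 of −0.81 and RP2 of −0.80. FOLR2, VPS29 and KRT74 went the other way, at 0.58, 0.35 and 0.24. Of the 13 lower genes 9 were higher with miR663a than with the vector, and CRISPLD2, at 0.68, was the 1 that passed 1.5-fold, against 1.06% of all counted genes. Because genes were chosen here for their difference between the inhibitor and scrambled RNA arrays, the order of those 2 arrays is fixed. The plasmid arrays did not enter that difference, but each gene's probe set was picked by its mean over all 4 arrays. The shares over all counted genes were not matched for signal, while 14 of the 28 higher and 11 of the 13 lower genes were in the dimmest group. In the 28 higher genes the inhibitor array was the highest of all 4 in 24, and the scrambled RNA array the lowest in 15. In the 13 lower genes the inhibitor array was the lowest in 12, and the scrambled RNA array the highest in 9. Over all genes above 0, whatever their difference, the first pair of shares was 52% and 37.4%, and over all genes below 0 the second pair was 50.4% and 46.9%. Choosing genes for a wide gap between these 2 arrays itself moves them to the ends of the order, so nothing is read from these counts. How far the scrambled RNA array itself departs from untreated cells was not tested.

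Probe sets of 1 gene read the same RNA, and they seldom gave the same size of difference. Of the 28 higher genes 24 had further probe sets. The median of those others was above 0 for 12 of the 24 and past 1.5-fold for 0. Of the 13 lower genes 9 had further probe sets, the median of the others was below 0 for 5, and it was past 1.5-fold for 0. These genes were chosen for the difference on the probe set used, which by itself favours smaller differences on the others. Over the 3780 counted genes with another probe set, the one used and the median of the others correlated at 0.0713 across genes. Over the 5266 genes with exactly 2 probe sets in the ratio table, the pair correlated at 0.0570 across genes, and 53.8% lay on the same side of 0. The difference between the members of a pair had a standard deviation of 0.292. These values are across genes of 1 pair of arrays and share both arrays, so the correlations are a description. Probe sets can also target different transcript forms of a gene.

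**Figure D3:**
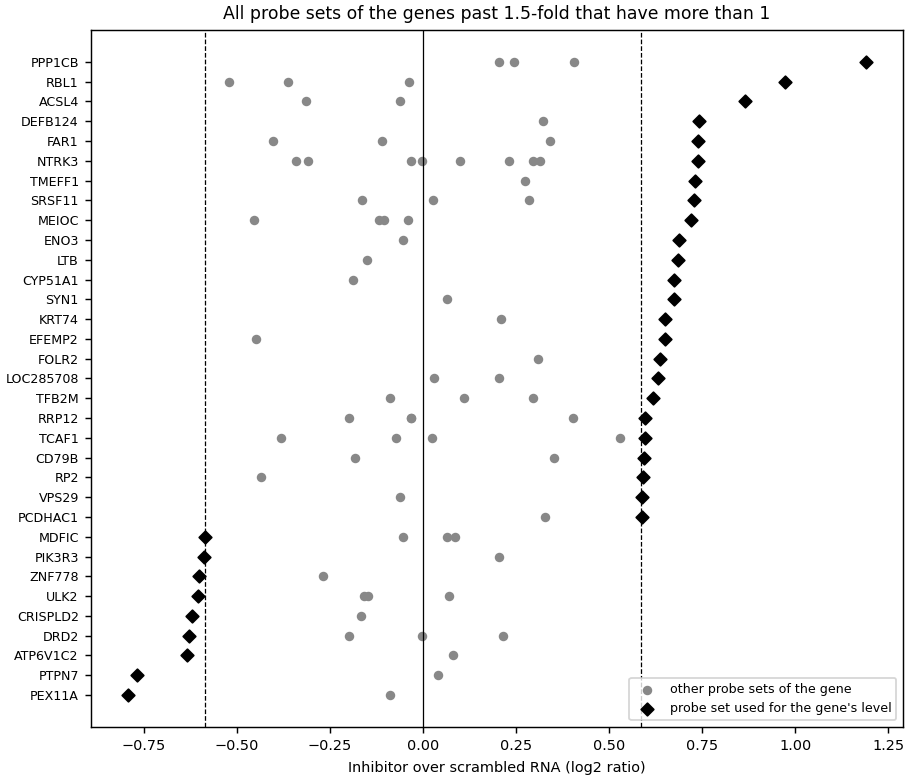
Log2 ratio of inhibitor over scrambled RNA for every probe set of the genes past 1.5-fold that have more than 1, with the probe set used for the gene's level as a diamond and the others as grey points. All 4 points of PPP1CB lie right of 0, while 3 of the 4 points of RBL1 lie left of it.

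**Figure D4:**
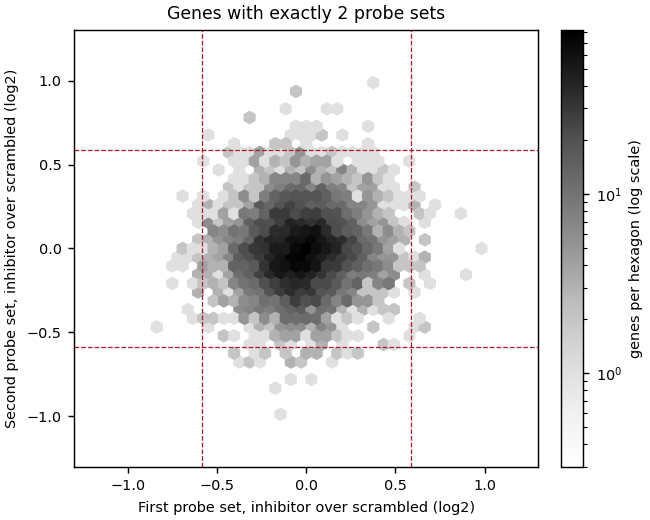
Log2 ratio of inhibitor over scrambled RNA of the first probe set (horizontal axis) and the second (vertical axis) for the 5266 genes with exactly 2, shaded by genes per hexagon on a log scale, with dashed lines at 1.5-fold. The cloud is round, with a correlation of 0.0570 across genes, which were not filtered by signal.

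The authors' deposited table of ratios covers 42450 probe sets and 20226 named genes, of which 11440 have no levels. By the median over all probe sets of a gene, 63 of the 20226 genes passed 1.5-fold upward with the inhibitor (0.311%) and 67 downward (0.331%), with 1 each way at 2-fold (0.00494% each). Medians were above 0 for 43.4% of genes and below it for 55.6%. Counted by probe set over both tables, 339 of 46127 were 1.5-fold higher (0.735%) and 332 were 1.5-fold lower (0.72%). Centring the ratios on their median gave 73 higher and 47 lower. Of genes with at least 2 probe sets, 10729 in all, 0 had every probe set 1.5-fold higher and 0 had every probe set 1.5-fold lower. At 1.25-fold, a threshold chosen after the values were seen, 33 had every probe set higher (0.308%) and 39 every probe set lower (0.364%). Among genes with at least 3 probe sets, 404 of 5463 had all of them above 0 (7.4%) and 674 all below it (12.3%).

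The genes named next were chosen after their values were seen, from those with 3 or more probe sets on the same side of 0. CABP4, a calcium-binding protein of photoreceptor synapses, had differences of 0.40 to 0.55 on 3 probe sets, and the brightest was at 6.07 with the inhibitor and 5.51 with scrambled RNA. PARD6B, a cell polarity protein of the PAR complex, had ratios of 1.88, 1.36 and 1.22 in the authors' deposited table, all above 1. GCLM, the modifier subunit of the enzyme that starts glutathione synthesis, had ratios of 1.75, 1.23 and 1.19 there, and its probe set with levels was at 10.17 with the inhibitor and 9.91 with scrambled RNA. KTN1, kinectin of the endoplasmic reticulum, had ratios of 1.48, 1.23 and 1.20, and of its 2 probe sets with levels the one with the larger difference was at 10.93 with the inhibitor and 10.36 with scrambled RNA. On the lower side, TRIM23 had ratios of 0.796, 0.755 and 0.714, and PLPP3, a lipid phosphate phosphatase, had ratios of 0.817, 0.706 and 0.665. POU2F1, the transcription factor OCT1, had 4 probe sets between −0.33 and −0.24, and MACC1, a gene linked to metastasis of colon cancer, had 3 between −0.39 and −0.25.

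For genes without levels the signal behind a ratio is unknown, so a large ratio can come from a dim probe set. Of these 11440 genes, 45 had ratios past 1.5-fold upward (0.393%) and 45 downward (0.393%), with 1 (0.00874%) and 0 past 2-fold. COX3, a subunit of cytochrome c oxidase encoded by the mitochondrial genome, had the highest of these ratios in the authors' deposited table at 2.20. That probe set is of a type that can pair with related sequences. RDH8, a retinol dehydrogenase of photoreceptors, followed at a log2 ratio of 0.97, and TMA16, a factor of ribosome assembly, at 0.92. TMA16 had a ratio of 0.498 with miR663a over vector in the same table. The lowest were DDX25, a testis RNA helicase, at −0.96, LOC100130219 at −0.85 and NOSTRIN, which binds endothelial nitric oxide synthase, at −0.82. These genes too were chosen after their values were seen.

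Bright genes give the steadiest values on an array. In the brightest 1371 genes by the lower of the 2 levels, all at or above 9.14 on both arrays, differences ran from −0.38 to 1.19 with a standard deviation of 0.147. PPP1CB, SRSF11 and CYP51A1 were the 3 past 1.5-fold. KRR1, a factor of small ribosomal subunit assembly, was at 10.72 with the inhibitor and 10.15 with scrambled RNA, and its 4 probe sets were all above 0, from 0.04 to 0.57. FAM98B, a subunit of the tRNA ligase complex, differed by 0.54, NDUFA5, a subunit of respiratory complex I, by 0.49, and the MAP kinase phosphatase DUSP4 by 0.49. In the authors' deposited table the other probe set of NDUFA5 had a ratio of 0.929, and 1 of the 3 of FAM98B had 0.843. NR4A2, an inducible nuclear receptor, was at 12.03 with the inhibitor and 11.56 with scrambled RNA, with its other probe set with levels at 11.30 and 11.37. APP, the amyloid precursor protein, differed by 0.46, with its lowest probe set at −0.25. ND6, a mitochondrially encoded subunit of complex I, differed by 0.48, although the authors' deposited table lists its probe set on chromosome 5.

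At the low end of the bright genes, RHOC, a small GTPase of cell motility, was at 10.13 with the inhibitor and 10.50 with scrambled RNA, and its other probe set had a ratio of 0.804 in the authors' deposited table. MCM2, a subunit of the replicative helicase, was at 10.77 with the inhibitor and 11.10 with scrambled RNA. ARF5, a GTPase of vesicle transport, was at −0.33, the linker histone H1-10 at −0.32, the chromatin remodeller CHD4 at −0.31 and the interferon gamma receptor chain IFNGR2 at −0.31. SLC35B1, RABAC1, the glycolytic aldolase ALDOC and ZNF593 were each at −0.30. None of these reached 1.5-fold.

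Genes listed as published targets of miR-663 were read as a group, because direct targets are the transcripts an inhibitor would be meant to release. Whether each listed gene is a direct target was not tested. Of 14 listed, 10 were counted, 4 of them above 0, with a median of −0.03 and 0 past 1.5-fold in either direction. Over all counted genes the median was −0.02 and 45.1% were above 0. With the mean of all probe sets with levels the list's median was 0.02, so it has no settled direction. JUND, an AP-1 subunit, was at 11.65 with the inhibitor and 11.43 with scrambled RNA (0.23), with its 3 probe sets between −0.32 and 0.23. EEF1A2, a translation elongation factor, was at 8.82 with the inhibitor and 8.61 with scrambled RNA (0.21). JUNB was at 8.28 with the inhibitor and 8.20 with scrambled RNA, FOSB at 9.82 and 9.92, and TGFB1 at 6.52 and 6.51. The cyclin-dependent kinase inhibitor CDKN1A was at 10.06 with the inhibitor and 10.15 with scrambled RNA, and the matrix proteoglycan HSPG2 was at 7.05 and 7.30. HMGA2, a chromatin protein with 9 probe sets between −0.39 and 0.54, was at 7.93 with the inhibitor and 7.96 with scrambled RNA. PIK3CD, a catalytic phosphoinositide kinase subunit, differed by −0.03 and MYL9, a myosin light chain, by −0.11. The 4 without levels were read from the authors' deposited table. There the chemokine receptor CXCR4 was below 1 on all 3 probe sets, at 0.854, 0.738 and 0.673, the transcription factor KLF4 had 0.989 and 1.16, the angiogenic ligand VEGFA had 4 ratios between 0.803 and 1.35, and TTC22 had 0.834, 0.890, 0.900 and 1.06.

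The host genes of microRNAs with this seed were read as well. In the authors' deposited table FADS1, a fatty acid desaturase, had ratios of 0.951, 1.10 and 1.12, and SLC16A3, the lactate exporter MCT4, had 5 ratios between 0.916 and 1.31. LOC284801, listed in band 20p11.1, had 0.939, 0.951 and 1.01, and the probe set at 0.951 is placed on chromosome 7 in that table. None of these ratios passed 1.5-fold. In the microRNA machinery 9 genes were counted, 6 above 0, with a median of 0.04. By the probe set used for each gene, the largest difference there was −0.14, in TNRC6C, a partner of Argonaute. TNRC6C was at 4.40 with the inhibitor and 4.54 with scrambled RNA, and TNRC6B, from the same family, was at 8.22 and 8.10. Over all their probe sets TNRC6C ran from −0.34 to 0.46 and TNRC6B from −0.17 to 0.54.

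Pathways around the largest single differences were then read as lists, to see whether their other members lay on the same side. Of 13 protein phosphatase 1 subunits counted, 5 were above 0, with a median of −0.04, and PPP1CB was the 1 past 1.5-fold. PPP1CA, the alpha catalytic subunit, was at 11.03 with the inhibitor and 11.22 with scrambled RNA. The myosin-targeting subunits lay on both sides, PPP1R12A at 9.35 with the inhibitor and 9.18 with scrambled RNA and PPP1R12B at 6.15 and 6.49. Over all their probe sets PPP1R12A ran from −0.05 to 0.17 and PPP1R12B from −0.34 to 0.19. Of 10 retinoblastoma family and E2F genes 4 were above 0, with a median of −0.03. Besides RBL1, RB1 was at 9.58 with the inhibitor and 9.18 with scrambled RNA, the cyclin-dependent kinase inhibitor CDKN2C was at 7.70 and 7.39, and E2F1 differed by −0.12. RB1 was at 8.86 with miR663a and 9.50 with the vector, but its other probe set in the authors' deposited table had a ratio of 0.850 for the inhibitor.

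The acyl-CoA ligases and ether lipid enzymes had the highest median of any list with at least 5 counted genes, 0.18 over 10 genes with 8 above 0 and 2 past 1.5-fold. After ACSL4 and FAR1 came ACSL3, which serves lipid droplets, at 10.21 with the inhibitor and 9.87 with scrambled RNA, with all 3 probe sets between 0.17 and 0.35. SLC27A2, a transporter and ligase of very long chain fatty acids, was at 7.34 with the inhibitor and 7.07 with scrambled RNA. The list's median was 0.03 with no filter on dim genes and −0.04 by the median over all probe sets of its genes, so its place depended on those choices. It had been drawn up with ACSL4 and FAR1 known to be high. In the peroxisome biogenesis list, which was likewise drawn up around PEX11A, 9 of 20 genes were above 0 with a median of −0.03. PEX7, an import receptor, was at 7.11 with the inhibitor and 6.76 with scrambled RNA.

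Of 19 cholesterol synthesis genes 6 were above 0, with a median of −0.05, and CYP51A1 was the 1 past 1.5-fold. MVD and PMVK, enzymes of the mevalonate steps, were at −0.33 and −0.27, and INSIG1, a sterol-regulated inhibitor of the pathway, was at 0.23. Of 10 arachidonic acid genes 3 were above 0, with a median of −0.08, CYP2J2 lowest. Of 18 autophagy genes 10 were above 0, with a median of 0.04. RB1CC1, a partner of the ULK kinases, was at 9.32 with the inhibitor and 9.02 with scrambled RNA, opposite to ULK2. Of 29 splicing factors 14 were above 0, with a median of −0.01, and after SRSF11 the next on the higher side was SRSF10 at 0.26. Of 5 neurotrophin genes 2 were above 0, NTRK3 the highest.

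In signalling and stress lists no counted member passed 1.5-fold, apart from WNT11. Of 31 hypoxia and glycolysis genes 8 were above 0, with a median of −0.09, beside 45.1% and −0.02 over all counted genes, and their differences ran from ALDOC at −0.30 and PFKFB4 at −0.28 to PFKFB3 at 0.28 and HIF1A at 0.25. HIF1A, the oxygen-regulated transcription factor, was at 11.94 with the inhibitor and 11.70 with scrambled RNA. Of 16 TGF-beta response genes 11 were above 0, with a median of 0.07, beside the same 45.1% and −0.02. Over all probe sets and all 30 genes of that list the median was 0.03, with 13 below 0. KLF10, an early TGF-beta gene, was at 10.52 with the inhibitor and 10.07 with scrambled RNA. The lowest member of the list was the corepressor SKI at 5.59 and 6.06 on the same arrays, with its other probe set at 0.12. Of 18 NF-kB and inflammation genes 8 were above 0, with a median of −0.02. IL18, a cytokine activated by the inflammasome, was at 9.47 with the inhibitor and 9.01 with scrambled RNA, and at 8.39 with miR663a and 9.42 with the vector. IL1B, at 4.94 with the inhibitor and 4.48 with scrambled RNA, was near the array median. CXCL8, interleukin-8, was at 7.70 with the inhibitor and 7.31 with scrambled RNA. Those levels were far below its levels on the plasmid arrays, 10.31 with miR663a and 10.13 with the vector. The other CXCL8 probe set had a ratio of 0.995 for the inhibitor in the authors' deposited table. Of 21 immediate early and AP-1 genes 11 were above 0, with a median of 0.05, among them EGR2 at 8.94 with the inhibitor and 8.61 with scrambled RNA, and SRF at 7.91 and 8.19.

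The interferon and nucleic acid sensing list was read because transfected RNA can be sensed by cells. Of 20 counted genes 6 were above 0, with a median of −0.02, and IFIT1, an interferon-induced protein, was at 6.88 with the inhibitor and 7.24 with scrambled RNA. Both arrays come from cells given single-stranded RNA, so an effect common to both would not appear in this difference. Medians were 0.04 over 16 endoplasmic reticulum stress genes (10 above 0), −0.02 over 10 p53 genes (5 above 0), −0.06 over 11 heat shock genes (4 above 0) and 0.03 over 15 Wnt genes (8 above 0). The cell cycle list had a median of −0.05 over 37 genes with 16 above 0, from MCM2 at −0.33 to the spindle checkpoint gene MAD2L1 at 0.36. The other probe set of MAD2L1 was at −0.10. The authors' deposited table lists the probe set used on chromosome 14, while it gives the gene's band as 4q27. Oxidative phosphorylation genes had a median of 0.02 over 34 genes (19 above 0), cytosolic ribosomal proteins 0.02 over 53 (37 above 0), and histones 0.04 over 7 (5 above 0). After quantile normalization the oxidative phosphorylation median was −0.0032 and the ribosomal protein median 0, so these have no settled direction. By the median over all probe sets of each gene, also those without levels, 10 of the 27 list medians changed sign. They included the microRNA machinery at −0.0408, the retinoblastoma and E2F genes at 0.0679 and the immediate early genes at −0.0136. Wnt, autophagy, histone, p53, neurotrophin, acyl-CoA and epithelial-mesenchymal transition genes made up the rest, so these lists have no settled direction. Of 4 SOCS genes 2 were above 0, with SOCS6 at 8.05 with the inhibitor and 7.72 with scrambled RNA.

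**Figure D5:**
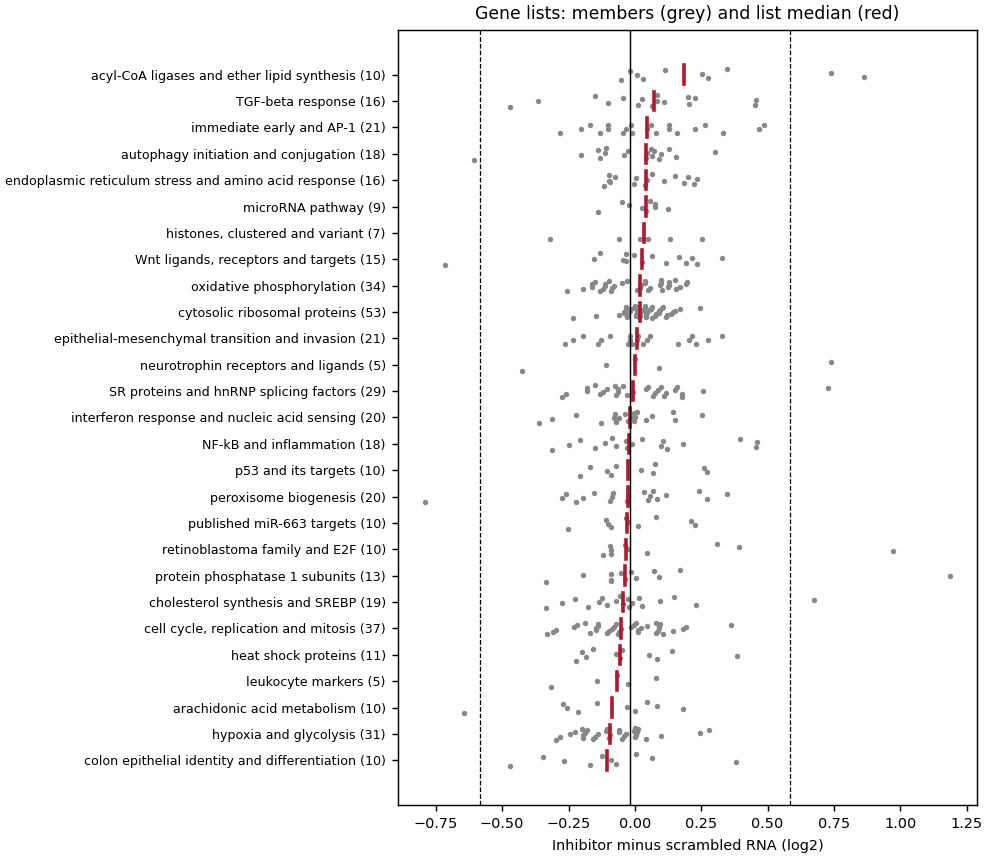
Inhibitor minus scrambled RNA (log2) of the counted members of each list with at least 5 of them (grey points, number of members in brackets) and the list's median (red bar), with a solid line at the median of all counted genes, −0.02, and dashed lines at 1.5-fold. List medians run from −0.11 to 0.18, and the members past 1.5-fold lie singly in their lists, except ACSL4 and FAR1.

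Colon epithelial identity genes had the lowest median of the lists with at least 5 counted genes, −0.11, with 3 of 10 above 0. CDX2, the homeobox factor of intestinal identity, was at 5.92 with the inhibitor and 6.39 with scrambled RNA (−0.47), and its relative CDX1 was at 5.59 and 5.94 (−0.35). TFF3, a mucus-associated trefoil peptide, went the other way at 4.77 with the inhibitor and 4.39 with scrambled RNA. In a culture, fewer cells of a type and less RNA per cell cannot be told apart. Of 21 epithelial-mesenchymal transition genes 11 were above 0, with a median of 0.01 that was 0 after quantile normalization, and L1CAM, a neuronal adhesion molecule, was highest at 0.33. Markers of other cell types were mostly dim. Among leukocyte markers 5 of 12 were above the array median on both arrays, all between 4.20 and 5.38 with the inhibitor and 4.27 and 5.53 with scrambled RNA, and PTPRC, which defines leukocytes, was at 2.34 and 2.30. Of 8 endothelial markers 2 were counted, CLDN5 at 5.19 with the inhibitor and 4.87 with scrambled RNA and PECAM1 at 5.25 and 5.19, while CDH5 and KDR were below the array median. Of 9 fibroblast markers 3 were counted, COL1A1 highest at 8.05 with the inhibitor and 7.62 with scrambled RNA. The 5 probe sets of COL1A1 ran from −0.29 to 0.43, with a median of 0.06. Of 10 neural and hepatocyte markers 3 were counted, and the neuronal tubulin TUBB3 was at 11.12 with the inhibitor and 11.32 with scrambled RNA.

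Ratios were also read by the position of a probe set along the gene. In 8563 genes with at least 2 placed probe sets, the one nearest the 3′ end had a median log2 ratio of −0.01 and the one nearest the 5′ end −0.04. The median of their difference was 0.03, and the 3′ probe set was the higher in 53.9% of genes. The same median for miR663a over vector was −0.04. Such a tilt can come with RNA quality, and its part in the differences was not tested.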

How the data were processed

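Per the labels' protocols, Trizol was used for total RNA, and 250 ng of it went into biotin-labelled cRNA. The submitters' processing notes name MAS5 with no version. The sources used here do not give the background correction, the scaling of the arrays or the genome build of the probe positions. The authors deposited log2 values of 16381 probe sets on each array and, in a further table, linear ratios of inhibitor over scrambled RNA and of miR663a over vector for 42450 probe sets. The 12704 shared probe sets agreed within 9.83e-05 on the log2 scale, and the 3677 found in the value table alone have no gene name in the files. Both tables together hold 46127 probe sets.

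Groups followed the genotype labels. The deposited ratio of inhibitor over control correlated at 1 with the difference taken this way. RefSeq accessions named 38798 probe sets, a symbol in use now 610 and an outdated one 339. For 1696 the table's own symbol stood, and 1006 with several genes and 1 with none were left out. A gene's level is its probe set with the highest mean over the 4 arrays, counted above the array median on both arrays. Ratios were put on the log2 scale, and a gene's ratio is the median over its probe sets. Detection calls were not used. With 1 array a side no test, error or p-value was computed, and the number of arrays limits the precision.

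Genes named are the 15 largest differences each way, the 10 largest each way among the brightest genes, genes with all of several probe sets past 1.5-fold, genes 2-fold apart but above the median on 1 array only, up to 4 members of each of 31 lists, the microRNA host genes, TTC22 and the published targets. Others are named as chosen after their values were seen, the other genes past 1.5-fold, the genes at the threshold, PTPRC, CDH5 and KDR included. Some genes named by this rule are not reported here. Members and lists were chosen with earlier results of these data known. The calculation was tested on simulated data with less noise than these arrays, which checks the arithmetic and not the genes counted here. Tables were made with pandas 2.3.3 and numpy 2.4.6 under Python 3.11.15, figures with matplotlib 3.10.9, and ranks for quantile normalization with scipy 1.17.1.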

Additional observations from a re-analysis of the deposited data

How the results depend on the processing

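Counts of genes depended on the filter and the scale, and 1 array a side limits every one of them. Against 28 higher and 13 lower, there were 57 and 56 without the filter, 6 and 0 above the 75th percentile on both arrays, 5 and 0 with an offset of 64 on the linear scale, 17 higher with the mean of all probe sets with levels, 13 and 28 with the sign turned as the titles read, and 1 and 0 at 2-fold. By the median over all probe sets, against 63 and 67, there was 1 each way at 2-fold. Genes with every probe set past the threshold, 0 each way at 1.5-fold, were 33 and 39 at 1.25-fold. That alternative, and centring on the median of the counted genes, with 33 and 10, were chosen after seeing the data. Of 27 list medians 11 were above 0, against 7 by the median over all probe sets, where 10 of the 27 changed sign. Of the 41 genes past 1.5-fold, 41 stayed past it after centring of each array, 39 after quantile normalization, 5 with the offset, 24 with the mean of probe sets and 8 with the median over all probe sets. Under the last, 5 turned sign, RBL1 at −0.20, MEIOC at −0.10, ACSL4 at −0.062, RRP12 at −0.0318 and MDFIC at 0.0057. The offset shrinks differences of dim genes by construction, and the other causes were not tested. No paired analysis was possible because each group has 1 array and the groups share a single replicate number.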

Other observations

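Of the 3677 probe sets in the value table that have no gene name in the files, 596 were above the array median on both arrays. Among them 6 were at least 1.5-fold higher with the inhibitor and 2 at least 1.5-fold lower, and their differences ran from −0.65 to 0.77. Of 39509 probe sets with 1 listed position and a RefSeq chromosome for their gene, 934 were listed by the authors' deposited table on a chromosome other than that of the gene.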
